A study of Mus musculus with 2 samples.

Results

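The Hedgehog pathway was followed through 9 of its genes in the mouse embryo at E11.5, namely the ligand Shh, the receptor Ptch1, the co-receptors Boc and Gas1, the transducer Smo, the transcription factors Gli1, Gli2 and Gli3, and the inhibitor Hhip. The 9 genes were named as the pathway's central components and not by any measured value, although earlier results of these data were known when they were chosen. All 9 were found among the 21937 gene features of the deposited matrices. A further 97 genes of the pathway and of its known target programmes were read beside them.

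Shh is a secreted protein made by a few signalling centres, among them the notochord, the floor plate of the neural tube, the posterior limb bud and the lining of the gut. In its absence Ptch1 keeps Smo inactive and Gli3, with Gli2, is processed into a repressor, and binding of Shh to Ptch1 and a co-receptor releases Smo, so that Gli2 and Gli1 activate transcription. Ptch1, Gli1 and Hhip are themselves targets of the pathway, and Ptch1 and Hhip limit its reach, while Boc, Gas1 and Cdon are known for expression at a distance from the sources of the ligand.

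Single cells came from piggyBac-transgenic embryos in which EGFP, driven by the broadly active CAG promoter, was linked to a DNA barcode. F0_8 and F0_9 were each a founder embryo made by electroporation of transposase mRNA and pronuclear injection of the donor DNA, F1_1 was an embryo of the following generation, and F1_mix was a deliberate mixture of cells from F1 embryos and was counted as 1 sample. All 4 suspensions carried the transgene and there was no embryo without it, so every comparison was made within transgenic material. The suspensions were tagged with separate oligos and captured in 1 droplet run.

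After the authors' filtering, 5678 of 6006 deposited barcodes were used, and 0 barcodes were shared between suspensions. F0_8 held 1599 cells, F0_9 1318, F1_1 1310 and F1_mix 1451, with medians of 10880 to 13267 UMIs (unique molecules) per cell. Of the 16 cell types in the authors' annotation, 12 had medians of 10898.5 to 29076 UMIs per cell and held 4309 cells. The other 4 (Endodermal Progenitor, Foregut, Hepatocyte and Midgut) had medians of 721.5 to 1674 UMIs with mitochondrial shares of 17.8 to 50.7%, and are described apart as the shallow types. A set of 4 markers for each type was highest in the type of that name in 7 of the 12 deep types and in 0 of the 4 shallow types. Among the types used below, the sets of Ependymal Cell, Epithelial Cell and Neuronal Progenitor were highest under their own names, and those of CNS Neuron, Chondrocyte, Erythroblast, Gut Mesenchyme/Amniotic Mesoderm and Neuroectoderm/Glia were not, so these names are the authors' labels. Levels are CPM, here UMIs per 1000000 UMIs outside mitochondrial genes, and their 95% intervals cover counting error only, since no embryo was sampled again. Cell types were clustered from the same counts, so levels between types are given as a description with no test.

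The receptor, the co-receptors, Smo, Gli2 and Gli3 were found in large shares of the cells, whereas the ligand was concentrated in a few. Shh gave 921 UMIs in 150 of the 5678 cells (2.64%), Hhip 592 UMIs in 296 cells (5.21%) and Gli1 461 UMIs in 386 cells (6.80%). Ptch1 was detected in 41.7% of cells, Smo in 51.3%, Gli2 in 38.6%, Gli3 in 56.4%, Boc in 34.4% and Gas1 in 47.3%.

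Shh, on chromosome 5 (28456840 to 28467101, GRCm38.p6), was highest in the authors' Ependymal Cell type, followed by Epithelial Cell and Neuronal Progenitor. In Ependymal Cell its level was 496 CPM in F1_1, 173 in F1_mix, 109 in F0_8 and 51.0 in F0_9, a mean of 207 ± 199 (SD, n = 4). In Epithelial Cell the levels of F0_8, F0_9, F1_1 and F1_mix were 103, 100.1, 48.9 and 127, and in Neuronal Progenitor, in the same order of suspensions, 14.4, 26.7, 38.9 and 27.8. The ranges of Ependymal Cell and Epithelial Cell overlapped, whereas every suspension of Epithelial Cell lay above every suspension of Neuronal Progenitor. Below these came Neuroectoderm/Glia with a pooled level of 6.71, CNS Neuron with 4.01 and Myoblast/Cardiomyocyte with 2.06, and the ranges of neighbours in the order from Neuronal Progenitor down overlapped, although Neuronal Progenitor was above Neuroectoderm/Glia within each of the 4 suspensions. The most that free RNA could give, from the globin transcripts in each type and the droplets of over 100 and up to 300 UMIs outside the suspensions, was 0.297 to 0.343 CPM of Shh in the first 5 of these types. In Myoblast/Cardiomyocyte it was 3.39, above the level measured there, whereas droplets of 1 to 100 UMIs gave 0.573, below that level.

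Within each of these types a small group of cells held most of the Shh transcripts. In Ependymal Cell, 27 of 137 cells (19.7%, 13.4 to 27.4) had a Shh UMI, and 19 cells with 5 or more UMIs held 95.0% of the type's Shh. In Epithelial Cell, 31 of 151 cells (20.5%, 14.4 to 27.9) had one and 14 cells held 80.4%, and in Neuronal Progenitor the numbers were 38 of 597 cells (6.37%, 4.54 to 8.63) and 22 cells with 89.1%. With each cell thinned to 5000 UMIs, which left out 1385 shallower cells, these 3 shares were 18.5, 16.0 and 4.58%. The highest count in a single cell was 69 in Ependymal Cell, 33 in Epithelial Cell and 20 in Neuronal Progenitor. No Shh UMI was found in 144 cells of Erythroblast, a red blood cell type with a median of 29076 UMIs, which allows up to 2.08% of cells with a UMI, nor in 60 cells of Erythrocyte, with a median of 24289, which allows up to 5.0%.

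**Figure D1:**
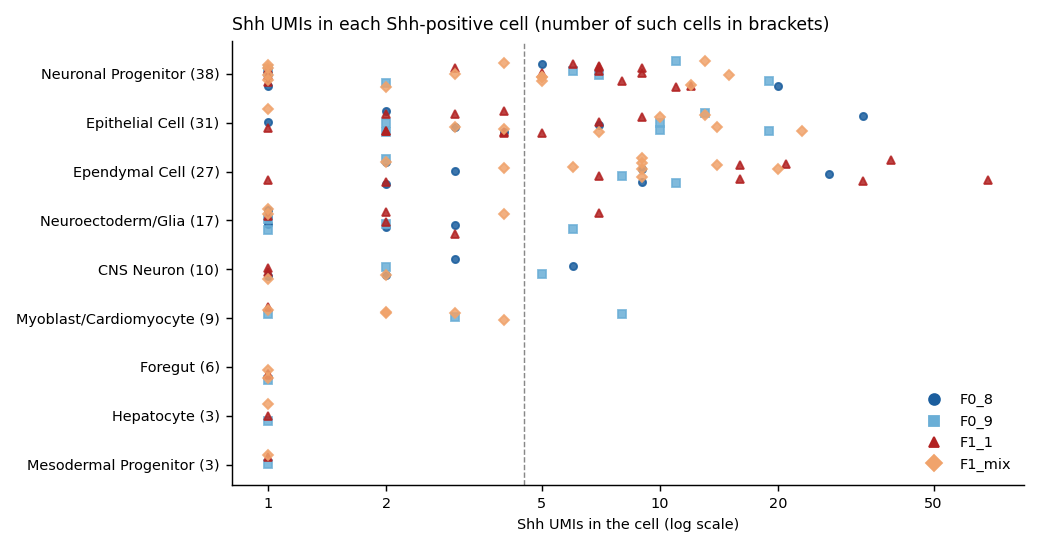
Shh UMIs in each cell that had at least 1, by cell type (log axis), with the suspension given by colour. In Ependymal Cell, Epithelial Cell and Neuronal Progenitor the counts ran up to 69, 33 and 20, whereas the other types stayed at 8 or below.

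The receptor Ptch1 (chromosome 13, 63508328 to 63573460), which binds the ligand and is induced by it, had a flatter profile. It was highest in Gut Mesenchyme/Amniotic Mesoderm, at 143, 129, 155 and 189 CPM in F0_8, F0_9, F1_1 and F1_mix, a mean of 154 ± 25.7 (SD, n = 4). Mesodermal Progenitor, with 98.8, 112, 127 and 160, and Chondrocyte, with 98.0, 113, 123 and 93.2, followed, and the range of Mesodermal Progenitor overlapped with both of the others, while every suspension of Gut Mesenchyme/Amniotic Mesoderm lay above every suspension of Chondrocyte. The 3 types with most Shh came next, with pooled levels of 103 in Epithelial Cell, 95.3 in Neuronal Progenitor and 89.6 in Ependymal Cell. Of the 11 steps between neighbours in the order of deep types, 1 was larger than the spread of the suspensions. Ptch1 was also present in Erythroblast, at 30.1, 22.6, 68.2 and 51.3 CPM (144 UMIs in all, with a UMI in 51.4% of its cells), where Gli3 gave 24 UMIs, although droplets of over 100 and up to 300 UMIs outside the suspensions, a measure of free RNA, held 194 CPM of Ptch1 and 427 of Gli3.

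The co-receptors Boc and Gas1, cell surface proteins that present Shh to Ptch1, differed in where they peaked. Boc (chromosome 16, 44485045 to 44558870) was highest in Neuronal Progenitor at 176, 196, 170 and 153 CPM, ahead of 116 pooled in Gut Mesenchyme/Amniotic Mesoderm and 83.1 in Mesodermal Progenitor. Gas1 (chromosome 13, 60174405 to 60177535) was highest in Mesodermal Progenitor, with 480, 410, 392 and 326, and its pooled levels were 370 in Gut Mesenchyme/Amniotic Mesoderm, 333 in Myoblast/Cardiomyocyte, 332 in Chondrocyte and 269 in Neuronal Progenitor. In CNS Neuron, Gas1 was at 30.8 and Boc at 39.6. The related co-receptor Cdon reached 176 CPM in Ependymal Cell and 128 in Neuronal Progenitor, and Lrp2, an endocytic receptor that also binds Shh, reached 36.6 in Ependymal Cell.

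Smo (chromosome 6, 29735497 to 29761366), the membrane protein that passes the signal into the cell, lay between 93.6 and 132 CPM in 7 of the 12 deep types. Its pooled level was 132 in Mesodermal Progenitor, 128 in Gut Mesenchyme/Amniotic Mesoderm, 108 in Epithelial Cell and in Neuronal Progenitor, 107 in Myoblast/Cardiomyocyte, 96.1 in Chondrocyte and 93.6 in Ependymal Cell. It was lower in CNS Neuron (52.0), Neuroectoderm/Glia (22.2) and Erythroblast (4.24).

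Among the transcription factors, Gli3 (chromosome 13, 15463723 to 15730026), the main repressor, was highest in Neuronal Progenitor, at 427, 355, 325 and 313 CPM. It was followed by Mesodermal Progenitor (285 pooled) and Gut Mesenchyme/Amniotic Mesoderm (266), and it was lower in CNS Neuron (70.7). Gli2 (chromosome 1, 118834061 to 119054405), the main activator, was highest in Gut Mesenchyme/Amniotic Mesoderm (114) and Mesodermal Progenitor (106), with 74.3 in Neuronal Progenitor. Gli1 (chromosome 10, 127329882 to 127341579), an activator that is itself induced by the pathway, was highest in mesenchymal types. Its levels were 13.5, 12.8, 11.8 and 13.6 in Gut Mesenchyme/Amniotic Mesoderm, 13.4, 14.8, 11.6 and 12.2 in Mesodermal Progenitor, and 8.71, 13.4, 13.1 and 11.8 in Chondrocyte, which overlapped, and the pooled level was 8.98 in Myoblast/Cardiomyocyte, 5.56 in Epithelial Cell and 4.51 in Ependymal Cell. Neuronal Progenitor had 20 Gli1 UMIs in all (2.40 CPM), and CNS Neuron and Neuroectoderm/Glia had 1 each.

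Hhip (chromosome 8, 79965850 to 80058060), which binds and sequesters Hedgehog ligands and is a pathway target, had its highest pooled level, 14.5 CPM, in Mesodermal Progenitor, at 17.9, 6.85, 13.6 and 17.5 by suspension. Gut Mesenchyme/Amniotic Mesoderm, with 13.1, 7.75, 15.5 and 20.9, and Myoblast/Cardiomyocyte, with 23.4, 4.83, 9.45 and 11.2, overlapped with it, the former with a higher mean over the suspensions (14.3 against 14.0), and F0_9 was the lowest suspension in these 3 types. In Myoblast/Cardiomyocyte the most that free RNA could give, by the measure used for Shh, was 6.89 CPM of Hhip, above the level of F0_9, and 4.40 of Gli1, 47.4 of Smo and 57.8 of Gas1, all below the pooled levels above. For Boc it was 66.1, above the pooled level of 45.5. The reading depends on the droplets used. From droplets of 1 to 100 UMIs the limits there were 0.642 for Hhip and 4.86 for Boc, below those levels. Over the deep types, 5 of 11 neighbouring steps were larger than the spread between suspensions for Gli3, 4 for Smo, 3 for Gas1, 2 for Gli2, 1 each for Shh, Ptch1, Boc and Hhip, and 0 for Gli1.

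**Figure D2:**
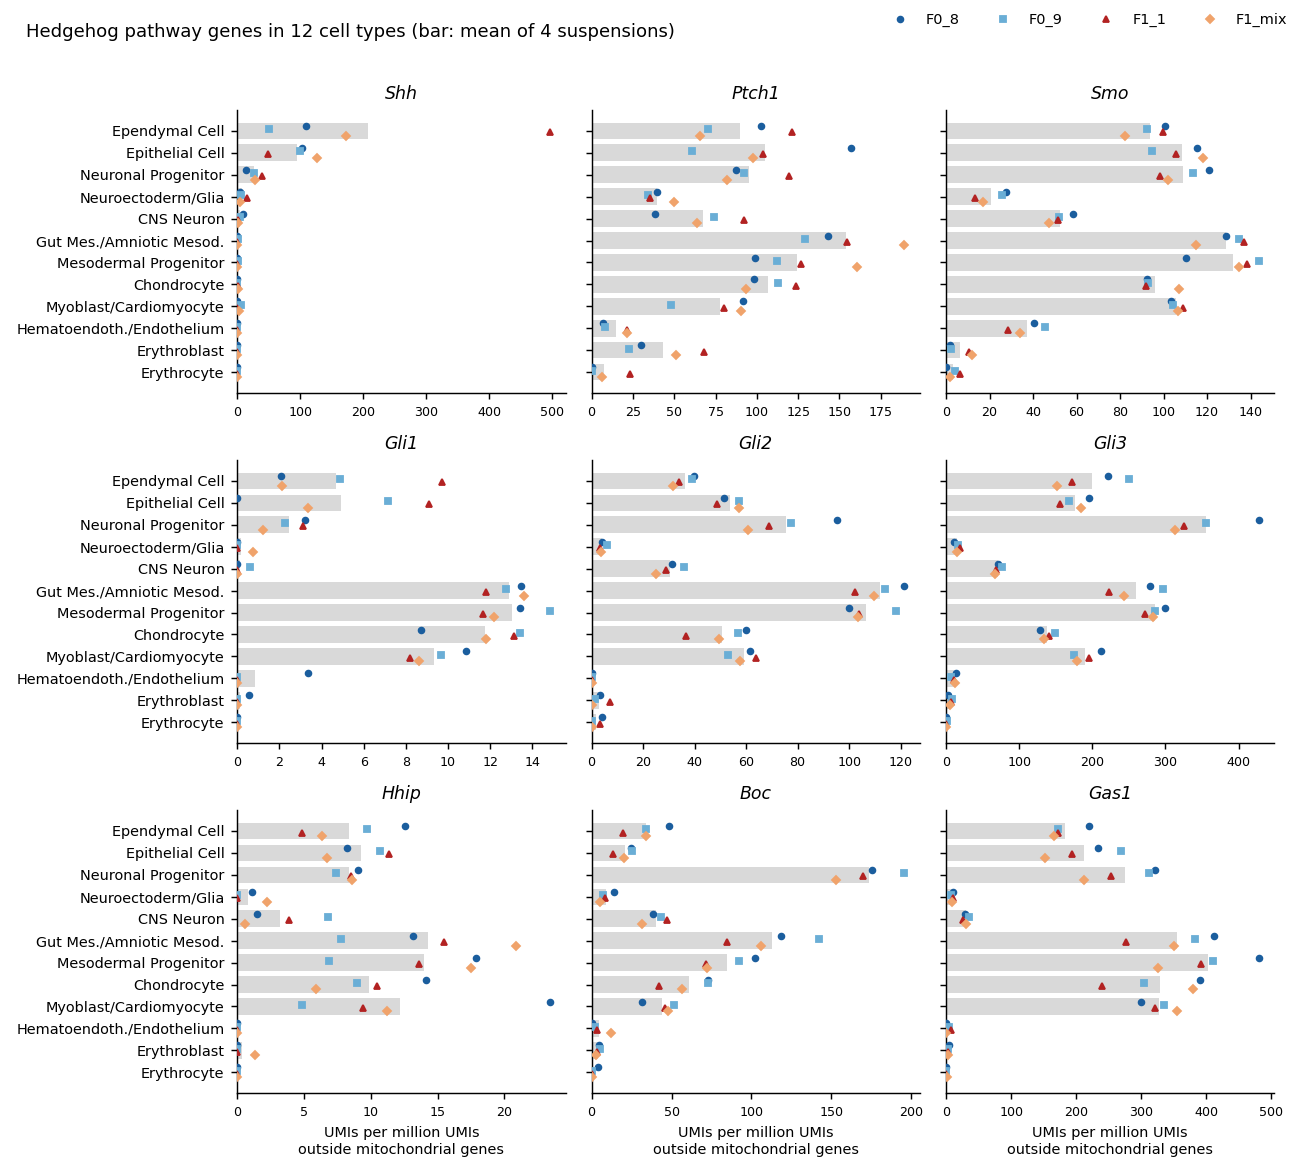
Level of each member in the 12 deep cell types (CPM, linear axis), with 1 point per suspension and a bar at the mean of the 4. Shh separates the Ependymal Cell and Epithelial Cell types from the mesenchymal types, and Gli1 runs the other way, with 13.1 CPM pooled in Gut Mesenchyme/Amniotic Mesoderm and 4.51 in Ependymal Cell.

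The profile of Shh over the 12 deep types had little in common with those of the pathway's targets. Likeness was measured as Pearson's r of log2(level + 1) over the 12 types within each suspension, as a description of types that share libraries, and the median of 4 suspensions is given. It was 0.34 between Shh and Ptch1 and 0.12 between Shh and Gli1, against 0.72 between Ptch1 and Gli1, 0.95 between Gli3 and Gas1, 0.95 between Gli3 and Smo and 0.94 between Gli3 and Boc. The 5 genes most like Shh were Shc3 (0.90), Otx1 (0.90), Lrp2 (0.89), Six3 (0.88) and Sox2 (0.87), and those most like Gli1 were Wdr86 (0.96), Bmp5 (0.94), Col12a1 (0.94), Ednra (0.94) and Bmp4 (0.93). For Ptch1 they were Cdc23, Igf1r, Tmem216, Wdr60 and Zfp644 (0.94 each), and for Gli3 H2az2 (0.96), Mpdz (0.96), Il17rd (0.96), Hmgn3 (0.95) and Antxr1 (0.95).

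Other genes of the pathway were read from the same lists. The ligands Ihh and Dhh gave 21 and 30 UMIs in all. Of the genes that release or carry the ligand, Scube1 reached 91.4 CPM in Chondrocyte, Disp1 43.5 in Mesodermal Progenitor and Scube2 31.5 in Neuronal Progenitor. Of the 3 transduction genes with the highest levels, which act on Gli proteins, the kinases Gsk3b and Csnk1a1 reached 814 in Neuroectoderm/Glia and 369 in CNS Neuron, and the ubiquitin ligase adaptor Spop 171 in Neuronal Progenitor.

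Promoter sequence from RefSeq (GRCm38.p6) was at hand for 6 of the 9 members and not for Shh, Gli1 or Boc. The consensus site of Gli proteins, GACCACCCA, and its core CCACCCA, which lies inside it, were searched on both strands in the 250 bases before the start that the table gives for each gene. By the positions above, the windows of Smo, Gli3 and Gas1 precede the gene, whereas those of Ptch1 and Gli2 lie inside it and that of Hhip overlaps it. Neither was found in the 6 windows, against 0.218% of 32536 windows of the same length with the full site and 8.13% with the core. Those of Gas1 (chr13:60177536-60177785, minus strand) and Gli3 (chr13:15463473-15463722, plus strand) are shown because both members were lower in ventral neural cells and in the Shh cells of 2 types described below, and no letters are in capitals since no site was found.
Gas1: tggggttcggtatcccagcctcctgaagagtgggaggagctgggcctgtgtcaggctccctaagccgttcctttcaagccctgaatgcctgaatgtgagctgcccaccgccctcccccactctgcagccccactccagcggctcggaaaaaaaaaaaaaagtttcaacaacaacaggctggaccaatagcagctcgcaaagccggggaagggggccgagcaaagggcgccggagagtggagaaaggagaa
Gli3: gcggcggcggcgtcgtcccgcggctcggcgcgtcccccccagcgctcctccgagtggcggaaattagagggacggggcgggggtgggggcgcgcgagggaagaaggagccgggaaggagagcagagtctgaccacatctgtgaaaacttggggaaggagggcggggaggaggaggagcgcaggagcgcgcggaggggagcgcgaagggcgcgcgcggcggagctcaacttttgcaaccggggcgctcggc

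Within the neural types, cells with ventral markers had more Ptch1 and Shh and less Gas1, Boc, Gli3 and Gli2 than cells with dorsal markers. Ventral cells were those of Neuronal Progenitor and Neuroectoderm/Glia with a UMI of Nkx6-1, Nkx6-2, Nkx2-2, Olig2, Nkx2-1 or Foxa2, factors that Shh is known to induce, and none of Pax3, Pax7, Msx1, Msx3, Gsx2 or Lmx1a, and dorsal cells were the converse. The names ventral and dorsal stand for these lists only. Lmx1a of the dorsal list was itself higher in the Shh cells of Neuronal Progenitor described below. There were 186 ventral and 384 dorsal cells, with median depths of 11751.5 to 14404 and 11749 to 14587.5 UMIs by suspension. The counts were summed per suspension and compared by edgeR's quasi-likelihood test with the suspension as a block and Benjamini-Hochberg adjustment over all genes.

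Ptch1 was at 60.7, 52.5, 72.7 and 58.8 CPM in dorsal cells of F0_8, F0_9, F1_1 and F1_mix and at 176, 204, 192 and 130 in ventral cells. The groups did not overlap, and the log2 difference was 1.49 (SE 0.14, adjusted p = 4.81e-05). Gas1 went from 305, 312, 330 and 254 in dorsal to 11.1, 8.70, 21.7 and 17.2 in ventral cells, a log2 difference of −4.25 (SE 0.18, adjusted p = 2.28e-07). Boc went from 217, 232, 245 and 187 to 22.3, 23.9, 24.4 and 14.8, a difference of −3.40 (SE 0.14, adjusted p = 2.28e-07). Both co-receptors thus lay apart in every suspension.

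Gli3 was at 367, 339, 349 and 329 CPM in dorsal and at 49.0, 54.4, 102 and 91.1 in ventral cells, a log2 difference of −2.18 (SE 0.16, adjusted p = 9.54e-06). Gli2 was at 85.8, 82.6, 64.4 and 62.9 against 37.9, 10.9, 43.3 and 17.2, a difference of −1.42 (SE 0.27, adjusted p = 0.00383). Smo, with 120, 92.7, 77.3 and 94.3 against 91.4, 80.5, 78.6 and 67.7, did not pass the test (−0.27, SE 0.13, adjusted p = 0.198). Shh itself was at 2.09, 1.54, 4.55 and 6.98 in dorsal and at 53.5, 52.2, 103 and 55.4 in ventral cells, a difference of 3.96 (SE 0.31, adjusted p = 1.44e-05). With 22 dorsal and 169 ventral UMIs it passed the count filter through the ventral group alone. Its call, counted below, is therefore not independent of its direction. In all, 6 of the 7 members tested were called, 2 higher and 4 lower, where 16.5% of all 9139 genes tested were called, 9.2% higher and 7.28% lower. Gli1, with 9 dorsal and 7 ventral UMIs, and Hhip, with 27 and 37, were below the count filter.

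The ventral group drew more on Neuroectoderm/Glia than the dorsal group, so the split was repeated within each type, an analysis added after the data were seen. Within Neuronal Progenitor (108 against 319 cells) the log2 differences were 1.83 for Ptch1 (adjusted p = 3.22e-08), 4.30 for Shh, 1.98 for Hhip (SE 0.44, adjusted p = 0.00643), −3.98 for Gas1, −2.97 for Boc, −1.72 for Gli3 and −0.95 for Gli2, all called, while Smo stood at 0.04. Over all 8100 genes tested in that type 4.11% were called, 170 higher and 163 lower. Within Neuroectoderm/Glia (78 against 65 cells) Ptch1 was at 1.25 and did not pass (adjusted p = 0.297). Among other genes, Cdon was lower in the ventral cells by the split over both types (−2.80), as were Ccnd2 (−1.53) and Mycn (−0.90) of 4 cell cycle genes. Both floor plate genes reported that were tested were higher, namely Spon1 (3.52) and Ntn1 (0.77), as were the 3 ventral forebrain genes, Lhx8 (5.73), Sim1 (5.62) and Six3 (2.52). Of 12 transduction genes, Gsk3b (0.31) and Kif3a (0.65) were higher. Both had their highest level in Neuroectoderm/Glia (814 and 169 CPM), so for them cell type and ventral markers cannot be told apart here. Foxd1 (5.05) of the mesenchymal targets was higher and Col2a1 (−0.68) was lower. The differences of all these other genes are given over both types and not within each.

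In Gut Mesenchyme/Amniotic Mesoderm, cells with transcripts of Foxf1 or Foxf2, forkhead factors known as Hedgehog targets in gut mesenchyme, had several times more Ptch1 than the other cells and less Gas1 and Boc. There were 121 cells with and 553 without a Foxf UMI, with median depths of 12236.5 to 15245 and 12372 to 14247.5. Ptch1 was at 93.5, 88.8, 60.5 and 62.9 CPM without and at 486, 435, 412 and 486 with Foxf in F0_8, F0_9, F1_1 and F1_mix, a log2 difference of 2.58 (SE 0.12, adjusted p = 7.87e-07). Over all alternatives of the analysis this difference ranged from 2.46 to 2.66.

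Gas1 was at 438, 413, 348 and 456 CPM without Foxf and at 233, 153, 82.4 and 102 with it, a log2 difference of −1.60 (SE 0.18, adjusted p = 0.000551). Boc was at 127, 152, 110 and 125 against 62.0, 66.7, 16.5 and 61.8, a difference of −1.30 (SE 0.21, adjusted p = 0.00513). The groups did not overlap for either co-receptor. Gli1, with 10.4, 12.4, 6.05 and 9.68 against 34.7, 15.7, 27.5 and 22.8, had a difference of 1.40 (SE 0.34) that missed the threshold (adjusted p = 0.0592), and passed it without F0_9 (1.63, adjusted p = 0.0245). Gli3 (−0.43, adjusted p = 0.0693), Gli2 (−0.39, adjusted p = 0.300) and Smo (−0.05, adjusted p = 0.970) did not pass either. Of 7 members tested, 3 were called, against 2.47% of 8909 genes, with 1 member higher, against 1.37%, and 2 lower, against 1.1%.

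Hhip, at 7.88, 7.23, 1.01 and 2.07 CPM without and 49.6, 11.8, 54.9 and 65.1 with Foxf, lay apart in all 4 suspensions but was below the count filter with 40 and 83 UMIs. DESeq2, run without that filter, gave a log2 difference of 3.28 (adjusted p = 0.000277), and edgeR with no filter gave 3.12. Among other listed genes, both sclerotome factors tested, Pax1 (1.46) and Pax9 (1.38), were higher in Foxf cells, as were 4 of 12 mesenchymal targets, Foxl1 (5.26), Foxd1 (1.51), Foxc2 (1.38) and Foxc1 (0.71). Cdon (−1.82), Msx1 (−1.82), Lmx1b (−2.96) and Prrx1 (−1.15) were lower, and the cartilage and notochord collagen gene Col2a1 (0.88) was higher. None of 14 transduction genes, 4 ligand genes or 4 cell cycle genes passed edgeR's test.

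In the Chondrocyte type, 46 cells with a UMI of a sclerotome factor were compared with 250 cells without. Ptch1 was at 95.4, 112, 90.5 and 64.8 CPM without and at 111, 116, 345 and 458 with such a UMI, so the groups were further apart in the F1 suspensions than in the founders, a difference between the generations that did not pass edgeR's test of the interaction (−2.19, founders minus F1, SE 0.42, adjusted p = 0.0885). The log2 difference of 1.27 (SE 0.38, unadjusted p = 0.00511) did not pass adjustment by edgeR (adjusted p = 0.455). None of the 6 members tested was called by edgeR or DESeq2, where edgeR called 0.0457% of 6568 genes and 390 had an unadjusted p under 0.05. In F1_1 and F1_mix the group with a sclerotome UMI held 8 and 6 cells.

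**Figure D3:**
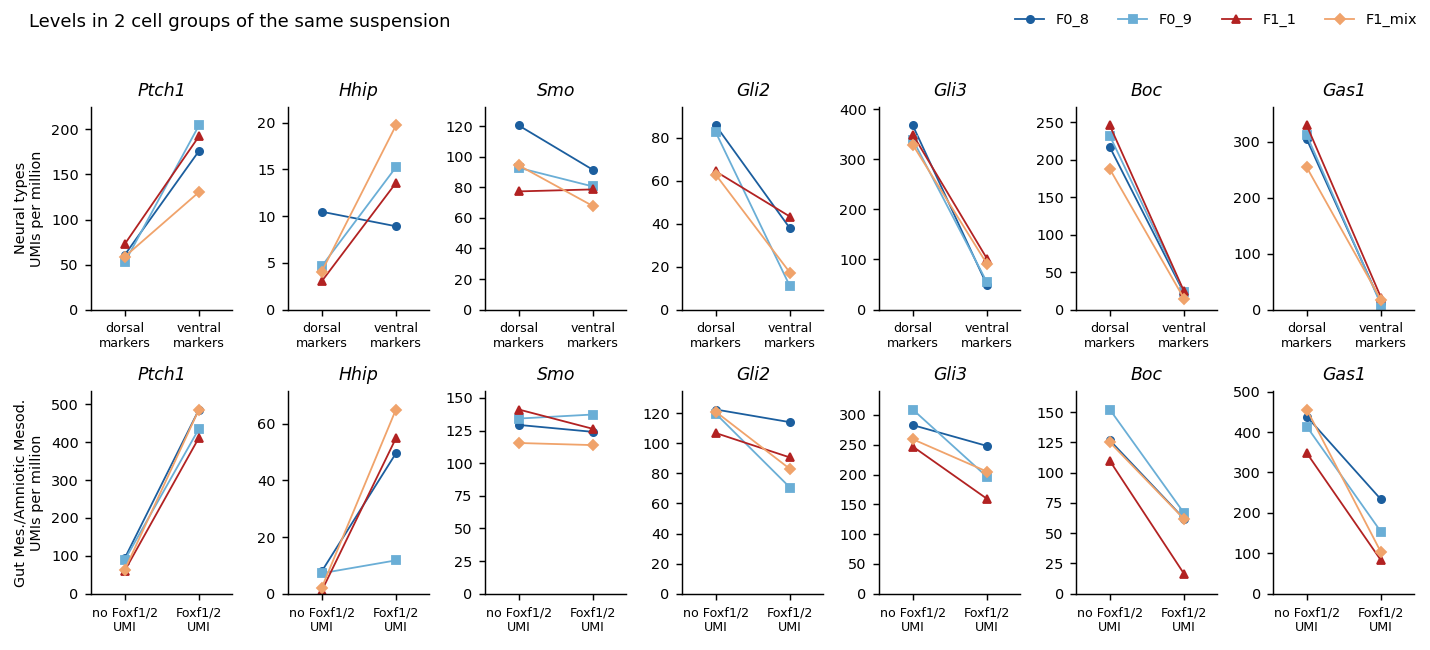
Levels of 7 members in both groups of cells of the neural split (upper row) and the Foxf split (lower row) (CPM, linear axis), with lines joining the groups of 1 suspension. In Foxf cells Ptch1 lay between 412 and 486 in the 4 suspensions and between 60.5 and 93.5 in the others, and Gas1 and Boc ran the opposite way.

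Cells with a Shh UMI had more Ptch1 and less Gas1 and Gli2 than the other cells of their type in Neuronal Progenitor and Epithelial Cell. The comparison was made in the 3 types where each suspension had at least 3 cells with a Shh UMI and the type at least 20 in all. In Neuronal Progenitor (38 against 559 cells) Ptch1 was at 77.6, 86.5, 113 and 74.0 CPM in cells without Shh and at 374, 171, 179 and 181 in cells with it, a log2 difference of 1.20 (SE 0.23, adjusted p = 0.00276), which was 0.66 and not called in cells thinned to 5000 UMIs (adjusted p = 0.687). Gas1 was at 327, 332, 279 and 228 against 130, 25.7, 4.84 and 17.0 (−3.36, SE 0.35, adjusted p = 1.63e-06), and Gli3 at 435, 376, 351 and 328 against 212, 68.6, 77.4 and 119 (−1.80, SE 0.21, adjusted p = 5.97e-06). These 3 members lay apart in every suspension.

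Boc, at 179, 203, 185 and 165 against 65.1, 94.3, 14.5 and 0, was also lower (−2.50, SE 0.39, adjusted p = 0.000355), as was Gli2, at 96.9, 82.2, 72.0 and 63.9 against 48.8, 8.57, 38.7 and 22.6 (−1.43, SE 0.35, adjusted p = 0.0248). The call for Gli2 was lost when any of F0_8, F0_9, F1_1 or F1_mix was left out (−1.77 to −1.14), and DESeq2 called neither Gli2 (adjusted p = 0.0583) nor Boc (adjusted p = 0.0958). In all, 5 of the 6 members tested were called, against 2.28% of 9020 genes, with 1 higher (background 1.29%) and 4 lower (0.998%), and Smo was not (−0.47, adjusted p = 0.536). The 5 floor plate genes reported that were tested were higher, namely the forkhead factors Foxa1 (5.95) and Foxa2 (4.10), Lmx1b (3.82), the spondin Spon1 (3.02) and the axon guidance cue Ntn1 (1.85). The homeobox genes Nkx2-4 (5.18) and Nkx2-1 (2.84) and the motor neuron progenitor factor Olig2 (2.77) were higher too. Of the 6 dorsal factors that defined the dorsal neural cells above, Lmx1a was higher (4.41) and Pax7 (0 UMIs in cells with Shh), Pax3 (−3.11) and Msx3 (−2.67) were lower, as were Cdon (−2.61) and Ccnd1 (−0.67).

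In Ependymal Cell (27 against 110 cells) the cells with Shh had almost no Gas1 or Gli3. Gas1 was at 243, 183, 227 and 210 CPM in cells without Shh and at 52.2, 0, 0 and 9.75 in those with it (−3.90, SE 0.58, adjusted p = 0.000812). Gli3 was at 250, 266, 221 and 194 against 17.4, 0, 20.3 and 0 (−4.34, SE 0.54, adjusted p = 0.000249), and Gli2 had 64 UMIs against 0, which makes it at least 4.04-fold lower with 3 counts over the group as the limit. Gas1 and Gli3, with 4 and 3 UMIs in cells with Shh, passed the count filter through the cells without Shh alone. Their calls, counted below, are therefore not independent of their direction. Cells with Shh were shallower here, with medians of 7842 to 11466 against 11367.5 to 14852. With each cell thinned to 5000 UMIs, both were still called, Gas1 at −3.10 (adjusted p = 0.00993) and Gli3 at −4.72 (adjusted p = 0.00174). Ptch1, at 92.8, 64.5, 80.0 and 59.2 against 174, 168, 253 and 87.8, did not pass (1.12, SE 0.34, adjusted p = 0.0877), nor did Smo (−0.46, adjusted p = 0.749). Of 4 members tested, 0 were called higher, against 2.86% of 4333 genes, and 2 lower, against 2.38% (both directions 5.24%). The 4 floor plate genes reported that were tested were higher, Foxa2 (6.71), Ntn1 (6.07), Foxa1 (5.83) and Spon1 (3.03), as were Sox9 (2.03) and Col2a1 (1.58), while Msx1 (−3.97) and Cdon (−2.26) were lower. Foxa1 and Foxa2 are also on the list of notochord genes, as are Sox9 and Col2a1, and floor plate and notochord were not told apart.

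In Epithelial Cell (31 against 120 cells) Ptch1 was at 66.7, 47.3, 83.4 and 74.7 CPM in cells without Shh and at 464, 128, 163 and 175 in cells with it (1.62, SE 0.30, adjusted p = 0.0123). The call was lost without F0_8 (adjusted p = 0.0503) and without F1_mix (adjusted p = 0.122), and the difference then ran from 1.18 to 1.90 over the 4 omissions. By DESeq2 the adjusted p was 0.0501. Gas1 was at 296, 318, 235 and 196 against 18.2, 21.3, 68.1 and 7.28 (−2.92, SE 0.37, adjusted p = 0.000522) and Gli2 at 61.3, 66.6, 62.2 and 68.1 against 18.2, 10.7, 9.07 and 21.8 (−2.12, SE 0.43, adjusted p = 0.0255). The call for Gli2 was lost without F0_9, F1_1 or F1_mix (−2.34 to −1.87 over the 4 omissions) and by DESeq2 (adjusted p = 0.239). Gli3 (−0.58, adjusted p = 0.541) and Smo (−0.47, adjusted p = 0.808) did not pass, so that 3 of 5 members were called, against 1.18% of 5492 genes, 1 of them higher (background 0.583%) and 2 lower (0.601%). Foxa2, which also marks the embryonic gut lining, was higher (3.95), and Cdon (−2.09) and the forebrain and eye factor Six3 (−2.98) were lower.

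**Figure D4:**
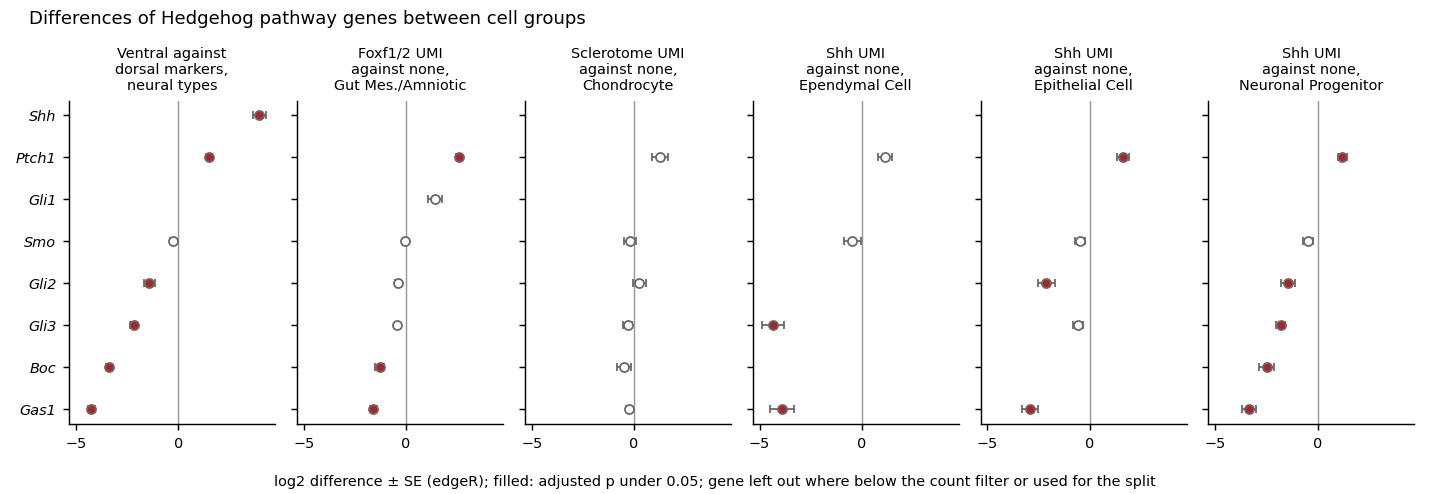
Log2 differences of the members in each comparison of cell groups by edgeR (bars are 1 SE), with filled points where the adjusted p was under 0.05. Ptch1 lay to the right in every panel, from 1.12 to 2.58, and Gas1 to the left wherever it was called, from −4.25 to −1.60.

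Single cells of the same type and suspension held pathway targets together more often than independent detection gives. In cells thinned to 5000 UMIs, Ptch1 and Hhip were found together in 86 cells where 43.1 were expected from their separate shares (2.0 times), Gli1 and Hhip in 12 where 5.45 were expected (2.20 times), and Ptch1 and Gli1 in 67 where 38.8 were expected (1.73 times). The ratio exceeded 1 in 4 of 4 suspensions for each pair. Shh and Ptch1 shared 43 cells against 28.1 expected (1.53 times, with 2.29, 1.17, 1.67 and 1.17 by suspension).

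Shh was seldom found with the co-receptors. It shared 8 cells with Gas1 where 38.1 were expected (0.21 times), 5 with Boc where 18.0 were expected (0.28 times), 5 with Gli2 where 19.4 were expected (0.26 times) and 20 with Gli3 where 47.1 were expected (0.42 times), below 1 in all 4 suspensions. Ptch1 was below its expectation with Gas1 (434 cells against 563), Boc (0.86 times) and Gli3 (0.91 times) in every suspension. Among themselves Gli2, Gli3, Boc and Gas1 were above it, from 1.06 to 1.17 times, also in every suspension. These ratios describe cells, which are not replicates, and carry no test.

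**Figure D5:**
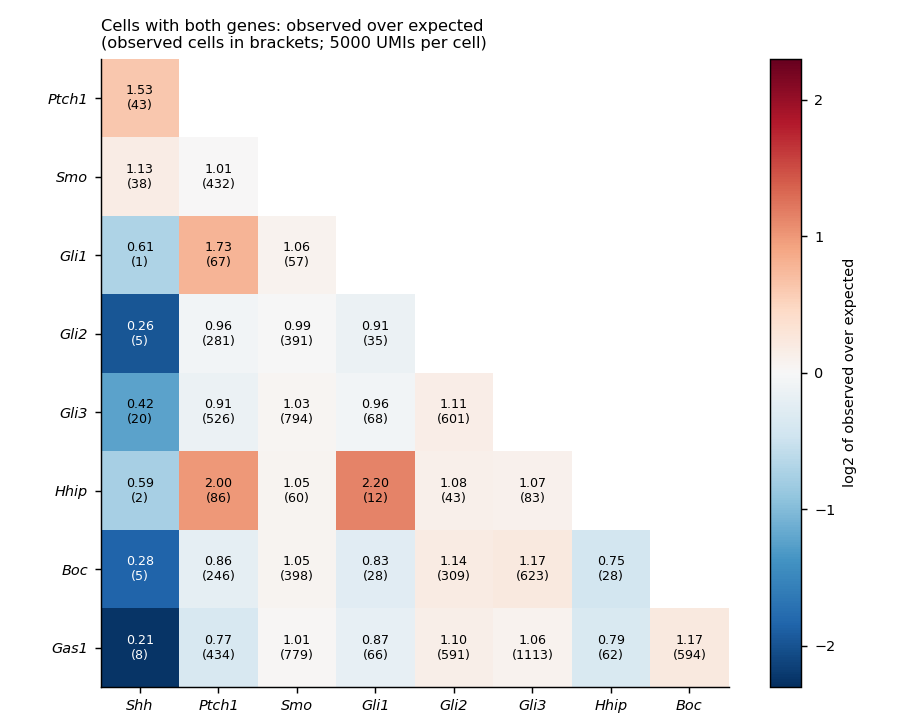
Ratio of observed to expected cells with a UMI of both genes, for each pair of members in deep cell types thinned to 5000 UMIs per cell. Pairs of targets stand above 1, up to 2.20 for Gli1 and Hhip, and Shh with Gas1 stands lowest at 0.21.

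No member passed the test between founders and the F1 generation in any cell type. Of 78 tested pairs of a member and a cell type, 0 were called by edgeR's quasi-likelihood test, where 0.753% of all 99241 pairs of a gene and a type were called. At an unadjusted p under 0.05 there were 20 of 78, where that share was 10.2% over all genes, and DESeq2 called 0. The lowest adjusted p was that of Boc in Mesodermal Progenitor, at 102 and 92.4 CPM in F0_8 and F0_9 and 71.8 and 72.3 in F1_1 and F1_mix (log2 difference 0.43, SE 0.12, adjusted p = 0.123). Ptch1 in the same type was at 98.8 and 112 against 127 and 160 (−0.46, SE 0.13, adjusted p = 0.126). Neither set of values overlapped between the generations. The largest log2 difference was that of Shh in Ependymal Cell (−2.05, SE 0.47, adjusted p = 0.219 by edgeR), also not called. It was at 109 and 51.0 CPM in F0_8 and F0_9 against 496 and 173 in F1_1 and F1_mix. Ptch1 was on the lower side in founders in 9 of 12 types tested, and Boc on the higher side in 9 of 11, with none of these called. The number of called pairs was 2 of 83 without F0_8 (0.533% over all genes), 0 of 85 without F0_9 (1.45%), 6 of 87 without F1_1 (1.35%) and 4 of 84 without F1_mix (1.44%), fits in which the lone suspension of a generation is assumed to vary like the others, and 9 of 116 with no filter on counts (1.67%).

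In the shallow types the members' levels followed a different order. Gli3 stood at 1054 and Boc at 740 CPM in Foregut, Gli2 at 409 in Hepatocyte, and Ptch1 at 318 in Foregut and 310 in Hepatocyte, each above every deep type. The ratio of the pooled shallow level to that of the deep types without red blood cells was 4.74 for Gli2, 4.23 for Boc, 3.04 for Gli3, 2.87 for Ptch1, 2.57 for Gli1, 1.93 for Smo, 1.77 for Hhip, 0.52 for Gas1 and 0.47 for Shh. Over all genes the median of this ratio was 0.41 for genes under 10 kb, 1.33 for 10 to 100 kb and 2.78 for longer ones. Gas1 is the shortest member with 3.13 kb and Shh and Gli1 follow with 10.3 and 11.7 kb, and Gli2 (220 kb) and Gli3 (266 kb) are the longest. The part of gene length, mitochondrial share and depth in the levels of these types was not tested.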

How the data were processed

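The matrices were deposited by the authors as UMI counts per gene and barcode, made with Cell Ranger (the headers give 7.2.0, and the methods text another release) on mm10 with the EGFP sequence added. Their cell table gave the suspension and cell type of each cell, after removal of doublets with DoubletFinder and with EGFP left out of the clustering, and 19 of its columns were not used. No doublet caller was run and no free RNA was subtracted.

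Levels are CPM, UMIs summed over cells per 1000000 UMIs outside mitochondrial genes, with exact Poisson 95% intervals, and shares carry Clopper-Pearson 95% intervals. The limit for a count of 0 is 3 counts. A type was called shallow when its median depth lay more than 3 times below the median over all cells. Counts summed per suspension and cell group were tested with edgeR 4.0.16 (TMM, filterByExpr, quasi-likelihood, suspension as a block where each suspension gave both groups) in R 4.3.3, with Benjamini-Hochberg adjustment over all genes tested (threshold 0.05) and the genes that define a split left out. All log2 differences named with a direction in the text passed this threshold unless a value beside them says otherwise. Both cell groups of a split came from the same embryos, which is the pairing behind the block, and each split was also fitted without it. Founders against F1 was restricted to types in which each suspension had at least 20 cells. DESeq2 1.42.0, no TMM, no filter, thinning to 5000 UMIs, a neural split at 2 marker UMIs and omission of each suspension were the alternatives. The scripts were tested on simulated data. Python 3.11.15, numpy 2.4.6, pandas 2.3.3, scipy 1.17.1 and matplotlib 3.10.9 were used.

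The 9 members and all lists were chosen with earlier results of these data known. Some genes of the lists are not reported here, and counts over lists leave them out. Genes named are all members, listed genes called in a split or among the 3 highest of their list, the ligands Ihh and Dhh, which were added after their values were seen, and the 5 most like Shh, Ptch1, Gli1 and Gli3 among genes with 300 or more UMIs. Gene positions are those of GRCm38.p6. In a suspension, fewer cells of a kind and less RNA per cell cannot be told apart in summed counts.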

Additional observations from a re-analysis of the deposited data

Results flagged for a closer look

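The difference between cells with and without Shh in Neuronal Progenitor itself differed between founders and F1 for 3 of the 57 members and listed genes tested by edgeR's test of the interaction, against 36 of 9020 genes in all (0.399%), and for none of those tested in the other 5 comparisons of cell groups (26 to 61), given as the founder difference minus the F1 difference in log2. These rest on 4, 7, 14 and 13 Shh cells in F0_8, F0_9, F1_1 and F1_mix. For Boc the value was 3.22 (SE 0.78, adjusted p = 0.0170), with 65.1 and 94.3 CPM in founder Shh cells and 14.5 and 0 in those of F1. For the dorsal factor Pax3 it was 5.32 (SE 0.88, adjusted p = 9.16e-06), with 7 and 12 UMIs in founder Shh cells and 0 and 1 in those of F1. For Spon1 it was −1.98 (SE 0.47, adjusted p = 0.0153), with 0, 23, 184 and 25 UMIs, most of them from F1_1.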

How the results depend on the processing

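The 19 called member differences kept their direction in all 180 alternatives run on them, and 13 of them kept the call throughout. The calls lost elsewhere were those of Ptch1 in the neural split within Neuroectoderm/Glia (1.25, adjusted p = 0.297) and in Neuronal Progenitor with Shh when thinned (0.66, adjusted p = 0.687), Ptch1 in Epithelial Cell by DESeq2 (1.48, adjusted p = 0.0501; 1.18 to 1.90 with 1 suspension omitted), Gli2 there by DESeq2 (−2.29, adjusted p = 0.239; −2.34 to −1.87 with omissions), and in Neuronal Progenitor Gli2 by DESeq2 (−1.62, adjusted p = 0.0583), thinned (−2.41, adjusted p = 0.184) and with omissions (−1.77 to −1.14), and Boc by DESeq2 (−3.02, adjusted p = 0.0958). Smo, never called, turned positive in the neural split within Neuronal Progenitor (0.0411), in Chondrocyte when thinned (0.00707) or without F0_8 (0.0383; range −0.38 to 0.0383) and in Neuronal Progenitor with Shh when thinned (0.0624). Counts of called genes moved more. The neural split (1506) gave 720 by DESeq2, 769 thinned, 985 with no replicate block, 333 within Neuronal Progenitor and 32 within Neuroectoderm/Glia. The Foxf split (220) gave 115 thinned, 597 with no filter and 126 to 259 with omissions, and the sclerotome split (3) 5, 13, 85 and 1 to 5 by DESeq2, thinned, with no filter and with omissions. Shh cells gave in Ependymal Cell (227) 81 thinned and 543 with no filter, in Epithelial Cell (65) 37 by DESeq2, 8 thinned, 257 with no filter and 16 to 80 with omissions, and in Neuronal Progenitor (206) 132, 97, 334 and 119 to 190. Founders against F1 (747 pairs) gave 432 by DESeq2, 3154 with no filter and 567 to 1554 with omissions, and its member pairs (0) 9 with no filter and 0 to 6 with omissions. No called member lost its call without the block, and Gli1 in Foxf cells (1.34, adjusted p = 0.0380) and Ptch1 in Ependymal Cell (1.18, adjusted p = 0.0481) also passed. Gli1 and Hhip were mostly below the count filter. The cause of these shifts was not tested.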
